A study of Caenorhabditis elegans with 12 samples.

Results

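Of the 24238 genes in the deposited expression table, 92 were annotated as ncRNA, lnc_RNA, snoRNA or antisense_RNA and had a mean of at least 1 FPKM (fragments per kilobase of transcript and per unit of sequencing depth, a level corrected for gene length and library size) over all 12 libraries. These 92 comprised 58 ncRNA genes (of 2534 rows of that type), 18 lnc_RNA genes (of 158), 12 snoRNA genes (of 246) and 4 antisense_RNA genes (of 80). The genes were chosen by these measured levels and their annotated type, and not by the change between groups: 2926 of the 3018 rows of the 4 types lay below 1 FPKM. The libraries came from whole worms of the C. elegans wild-type strain N2, 6 from animals that received tetrathiomolybdate (TM), a copper-chelating compound, for 4 days and 6 from controls that received dimethyl sulfoxide (DMSO). Every animal carried the N2 genotype, and the labels give neither dose, age, sex nor the culture behind each library. The p-values below are therefore relative to the spread among libraries of a group, part of which may be technical. RNA was purified on oligo(dT), which binds poly(A) tails, and second strands were marked with dUTP.

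Noncoding RNA genes make transcripts that are not translated into protein. Long noncoding RNAs, among them the long intergenic RNAs named linc, are commonly capped, spliced and polyadenylated like messenger RNAs, whereas mature small nucleolar RNAs (snoRNAs) mostly lack a poly(A) tail. Box C/D snoRNAs guide ribose methylation and box H/ACA snoRNAs guide pseudouridine formation on ribosomal RNA, and many snoRNA genes lie within introns of the protein-coding genes they are transcribed with. Antisense RNA genes, named anr in C. elegans, are transcribed from the strand opposite another gene. Of the genes below, lep-5 is known as a long noncoding RNA of developmental timing that acts with the LEP-2 and LIN-28 proteins, tts-1 as a ribosome-associated RNA that is abundant in dauer larvae and long-lived mutants, and rncs-1 as an RNA raised by starvation. The short RNAs of the SmY family are nuclear RNAs of nematodes linked to spliced leader trans-splicing.

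Library totals ran from 63755278 to 66306356 counts in TM and from 61432401 to 67068328 counts in DMSO. TM replicate 5 and DMSO replicates 2 and 6 stand apart from the rest of their groups over all genes, so counts of called genes are also given without these 3 libraries. Markers of the main tissues were detected in every library, and several moved with the treatment. Of 9 sperm markers, 9 were higher in TM, with summed levels of 94.8 to 170 FPKM in TM libraries and 8.24 to 34.7 FPKM in DMSO libraries. Of 8 oocyte and embryo markers, 7 were lower and 0 higher, with sums of 3521 to 4059.7 FPKM in TM and 4294 to 4798 FPKM in DMSO. All 4 epidermis markers were higher (735 to 949 FPKM in TM, 363 to 497 FPKM in DMSO), as were all 4 body wall muscle markers (473 to 601 FPKM in TM, 253 to 305 FPKM in DMSO). Of 4 intestine markers 1 was higher and 1 lower, with sums of 2359 to 3189 FPKM in TM and 3269.7 to 3624 FPKM in DMSO. Of 5 neuron markers 4 were tested, 1 higher and 1 lower, with sums of 276 to 364 FPKM in TM and 279.8 to 349.9 FPKM in DMSO. None of these markers was at 0 in all libraries. The part of such shifts in tissue RNA in the results on noncoding RNAs was not tested, and in whole-animal RNA fewer cells of a type and less RNA per cell cannot be told apart.

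Every one of the 92 genes matched the RefSeq annotation of assembly WBcel235 by identifier, start, end and type, so positions are given in that build. The genes just inside the level threshold were B0511.16 among ncRNAs (1.03 FPKM in TM, 0.978 FPKM in DMSO), linc-63 among lnc_RNAs (1.21 FPKM in TM, 1.31 FPKM in DMSO), smy-2 among snoRNAs (1.96 FPKM in TM, 0.558 FPKM in DMSO) and anr-17 among antisense RNAs (1.14 FPKM in TM, 1.22 FPKM in DMSO). Just outside it lay F40G9.20 (1.04 FPKM in TM, 0.957 FPKM in DMSO), linc-22 (1.13 FPKM in TM, 0.770 FPKM in DMSO), K07C5.10 (1.49 FPKM in TM, 0.488 FPKM in DMSO) and anr-24 (0.881 FPKM in TM, 1.09 FPKM in DMSO). Of the 92 genes, 10 had a DMSO mean below 1 FPKM and 4 had a TM mean below 1 FPKM, so these 14 passed through 1 group alone. Mean levels over all libraries spanned 1.0 to 156 FPKM with a median of 2.74, and mean counts per library spanned 2.08 to 8712 with a median of 69.5. The 5 genes with the most counts, C30E1.9, W05H9.3, tts-1, R106.8 and lep-5, held 58.2% of all counts of the 92.

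Each noncoding RNA gene was compared between TM and DMSO to see which differed after 4 days of the chelator. Of the 92 genes, 27 passed an adjusted p of 0.05 in edgeR's quasi-likelihood test on counts, 19 of them higher and 8 lower in TM, and 65 did not pass. That is 29.3% of the 92, beside 39.8% of all 11535 tested genes (23.7% higher and 16% lower). The direction turned with quantile normalization: once the values had been quantile-normalized, limma called 8 of the 92 higher and 26 lower. Of the 19 higher calls 11 were then lost, and 18 genes not called before were newly called, all of them lower. The turn was not particular to the 92. Over all tested genes this fit called 42.3%, and 39.6% of those calls were higher, beside 59.7% of the calls in the count model. Against the count model, this fit moved the log2 change of the tested genes by a median of -0.098, with tool and measure also changed. With median-ratio scaling 18 of the 92 were higher and 8 lower, and with total counts 19 and 7. Without the quantile step, limma on log2(FPKM + 1) called 20 higher and 9 lower. The shares of all tested genes called with median-ratio scaling, total counts and this limma fit were 42.5%, 39.2% and 39.9%. Without TM replicate 5 and DMSO replicates 2 and 6, 29 passed, 22 higher and 7 lower, and 24 of the 27 were among them. That fit called 55.0% of all tested genes. The median log2 change was 0.12 over the 92 genes and -0.0091 over all tested genes, and after quantile normalization it was -0.25 over the 92 genes and -0.088 over all tested genes. In 17 of the 92 genes (18.5%) the values of the groups did not overlap, with TM above in 12 and below in 5, beside 22.5% of all tested genes (16.1% above and 6.41% below). Of the 14 genes that reached the threshold through 1 group, 6 of the 10 with a low DMSO mean were called higher and 3 of the 4 with a low TM mean were called lower, a split that the selection favours. Of the 78 genes with at least 1 FPKM in each group, 13 were higher and 5 lower.

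By type, 12 ncRNA genes were higher, 5 lower and 41 not called, with a median log2 change of 0.14. Among lnc_RNA genes 4 were higher, 1 lower and 13 not called (median 0.24). Among snoRNA genes 2 were higher, 2 lower and 8 not called (median -0.23). Among antisense RNA genes 1 was higher, 0 were lower and 3 were not called (median -0.11). The shares called were 29.3% of ncRNA, 27.8% of lnc_RNA, 33.3% of snoRNA and 25.0% of antisense RNA genes, beside 39.8% of all tested genes. After quantile normalization the counts were 6 higher and 13 lower for ncRNA, 2 higher and 5 lower for lnc_RNA, 0 higher and 6 lower for snoRNA, and 0 higher and 2 lower for antisense RNA. That fit called 42.3% of all tested genes, and 39.6% of those calls were higher. No test set the types against each other. Of the called genes, 6 rose and 2 fell by at least 1 on the log2 scale; the median change was 0.70 among the higher and -0.52 among the lower.

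**Figure D1:**
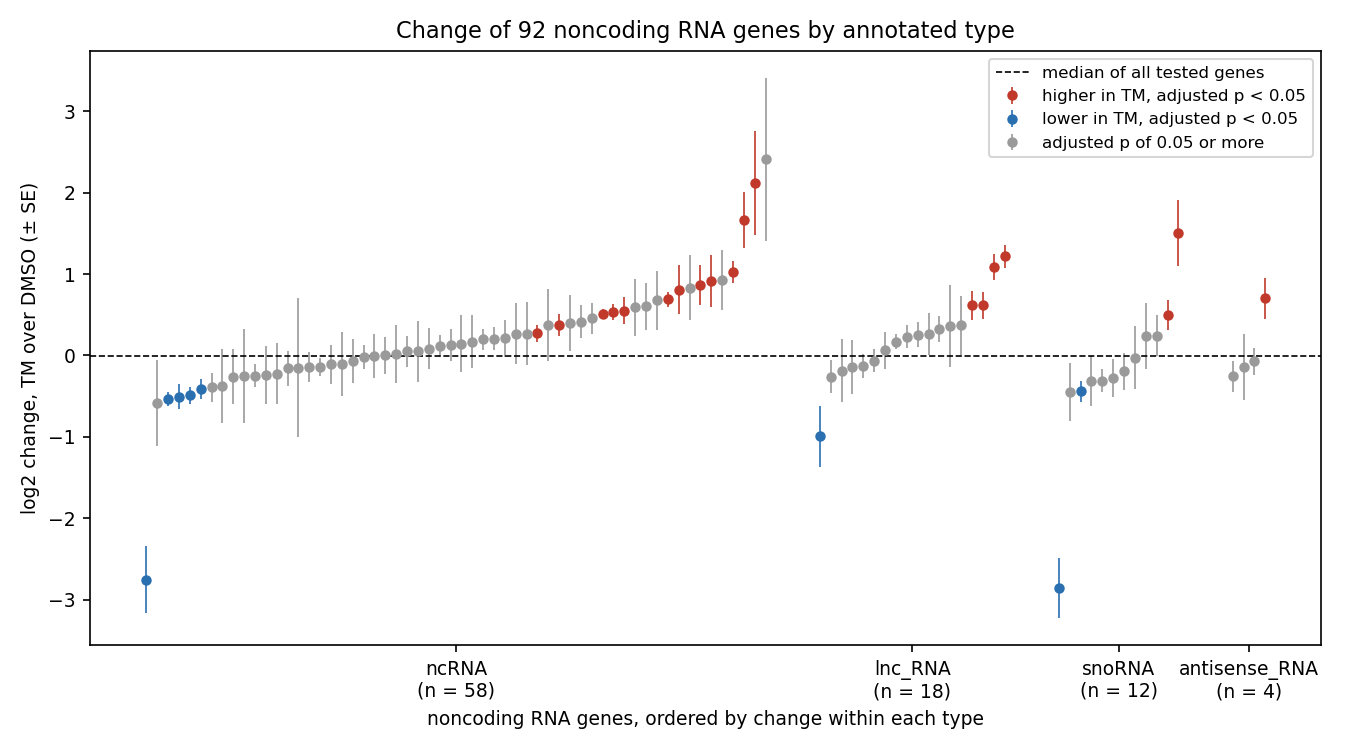
Log2 change of TM over DMSO (y axis) for each of the 92 noncoding RNA genes, ordered within the 4 annotated types along the x axis; points are fitted changes from the count model, bars are ± 1 SE, and the dashed line is the median of all tested genes at -0.0091. With this scaling 19 genes are called higher and 8 lower (8 and 26 after quantile normalization), and C02B4.8 and F26D10.24 lie lowest, at -2.75 and -2.85. Over all tested genes 39.6% of the calls are higher after quantile normalization, beside 59.7% in the count model.

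Depth set how small a change could be called. Of 38 genes with a mean count under 30 per library, 7 were called (18.4%), beside 28.1% of the 96 tested genes at that depth, which include the 38. The smallest called change among the 38 was 0.92 on the log2 scale. Of 33 genes with 30 to 300 counts, 10 were called (30.3%, beside 45.4%), the smallest at 0.41. Of 21 genes with over 300 counts, 10 were called (47.6%, beside 38.2%), the smallest at 0.27. The median SE of the log2 change was 0.37, 0.19 and 0.14 in these 3 classes, so a change of 0.5 was not detectable in most of the shallow genes. The SE also reflects spread between replicates and covers more than counting error.

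**Figure D2:**
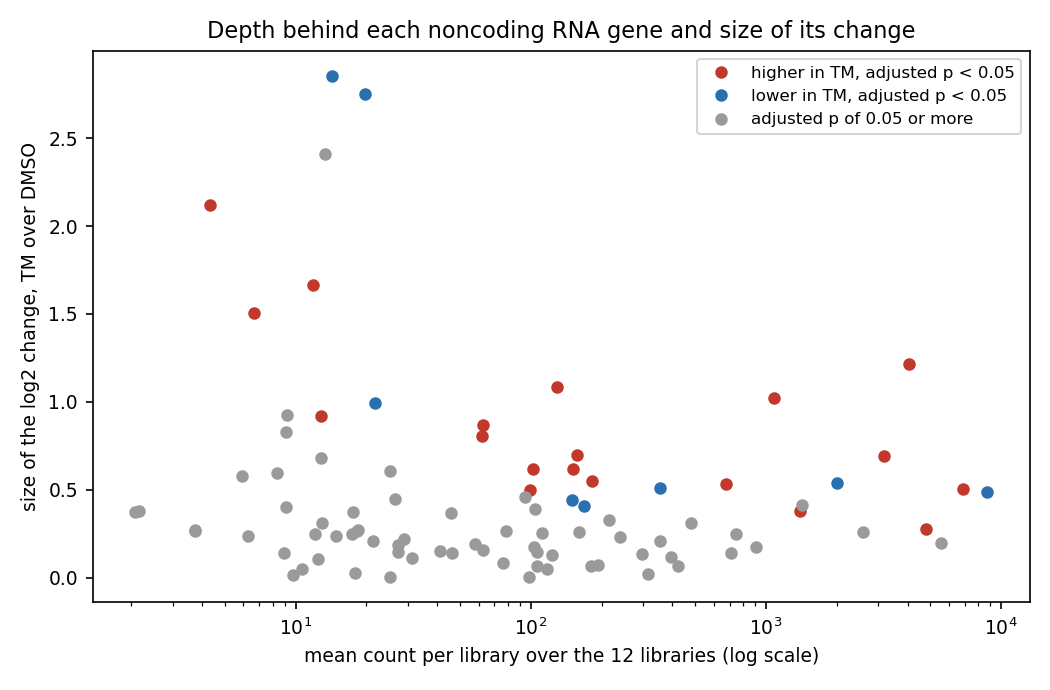
Size of the log2 change of TM over DMSO without its sign (y axis) against the mean count per library (x axis, log scale) for the 92 noncoding RNA genes, coloured by call. Below 30 counts the smallest called change is 0.92, and above 300 counts it is 0.27.

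The long noncoding RNA with the highest level was lep-5 (chromosome X, 12652591 to 12653520, minus strand, 3 exons), which acts in the timing of larval development. Its level ran from 132 to 194 FPKM in TM libraries (median 141) and 50.6 to 83.6 FPKM in DMSO libraries (median 58.7). All 6 TM values lay above all 6 DMSO values, with TM replicate 5 highest and the other TM libraries within 132 to 146 FPKM. The mean was 148 ± 23.3 FPKM in TM and 62.1 ± 11.6 FPKM in DMSO (SD, n = 6 each), and the gene rose in TM (log2 change 1.22 ± 0.14, adjusted p = 1.74e-05). Across 22 alternative fits its log2 change ranged from 1.1 to 1.34 and stayed past the threshold.

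Of 11 linc genes, 2 rose, 0 fell and 9 did not pass, beside 23.7% higher and 16% lower over all tested genes. The signs of 6 of the 9 turned from positive to negative with quantile normalization. After it linc-11 (-0.24, adjusted p = 0.0452) and linc-7 (-0.40, adjusted p = 0.018) passed as lower, as did linc-63 (-0.55, adjusted p = 0.0295), while linc-5 (-0.25), linc-6 (-0.20), linc-8 (-0.31) and linc-29 (-0.013) did not pass. The long intergenic RNA linc-72 (chromosome II, 8819542 to 8820163, plus strand) shares 11 bases with F46C5.1 on the opposite strand, a gene at 0.305 FPKM in TM and 0.910 FPKM in DMSO. Its own level ran from 3.41 to 4.96 FPKM in TM libraries (median 4.16) and 1.58 to 2.48 FPKM in DMSO libraries (median 1.85), and the groups did not overlap (log2 change 1.09 ± 0.15, adjusted p = 7.99e-05). The 2-exon linc-15 (chromosome X, 11991484 to 11991933, minus strand) had 4.52 to 6.23 FPKM in TM libraries (median 5.4) and 2.6 to 4.51 FPKM in DMSO libraries (median 3.31), again without overlap (log2 change 0.62 ± 0.18, adjusted p = 0.0123), although its change after quantile normalization was 0.19 with an adjusted p of 0.182. A further noncoding gene on the same strand, the ncRNA gene C49F5.11, lies 133 bases away. C49F5.11 had 13.1 ± 2.05 FPKM in TM and 9.3 ± 2.24 FPKM in DMSO and did not pass (log2 change 0.46 ± 0.19, adjusted p = 0.0737), but it passed without DMSO replicate 6 (adjusted p = 0.0336) and with limma on log2 FPKM values. The most abundant linc gene, linc-9 (chromosome I, 3703542 to 3704956, plus strand), had 7.44 to 10.18 FPKM in TM libraries (median 9.32) and 6.66 to 11.29 FPKM in DMSO libraries (median 10.9), and its groups overlapped (log2 change -0.13 ± 0.15, adjusted p = 0.496). For linc-29 (chromosome IV, 6354024 to 6357243, plus strand) the values were 5.01 to 6.28 FPKM in TM libraries (median 5.8) and 3.02 to 6.54 FPKM in DMSO libraries (median 4.22), overlapping through DMSO replicate 4 at 6.54 FPKM. It did not pass (log2 change 0.33 ± 0.16, adjusted p = 0.112), and without that library the adjusted p was 0.0209.

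The other 7 linc genes had mean levels below 2 FPKM in each group and overlapping values. Their means were 1.86 ± 0.214 FPKM in TM and 1.52 ± 0.232 FPKM in DMSO for linc-11, 1.72 ± 0.80 FPKM in TM and 1.93 ± 0.964 FPKM in DMSO for linc-4 and 1.65 ± 0.63 FPKM in TM and 1.23 ± 0.668 FPKM in DMSO for linc-6. Those of linc-7 were 1.43 ± 0.354 FPKM in TM and 1.32 ± 0.369 FPKM in DMSO. For linc-8 they were 1.45 ± 0.31 FPKM in TM and 1.18 ± 0.425 FPKM in DMSO. The means of linc-5 were 1.44 ± 0.708 FPKM in TM and 1.09 ± 0.59 FPKM in DMSO, and those of linc-63 were 1.21 ± 0.446 FPKM in TM and 1.31 ± 0.552 FPKM in DMSO. None of the 7 passed, with log2 changes between -0.19 for linc-4 and 0.37 for linc-6. The annotated linc-5 contains the ncRNA gene C04C11.23 on its own strand, and linc-6 shares 40 bases with F52D2.14 on its strand, so reads of each pair could be split by the counting and these levels are uncertain.

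Among the remaining lnc_RNA genes, F19G12.10 (chromosome X, 1420699 to 1423497, plus strand, 4 exons) ran from 2.52 to 3.69 FPKM in TM libraries (median 3.11) and 1.35 to 2.44 FPKM in DMSO libraries (median 2.0). Its groups did not overlap and it rose (log2 change 0.62 ± 0.16, adjusted p = 0.0084), but with quantile normalization the change was 0.057 (adjusted p = 0.709). The gene M04F3.7 (chromosome I, 4768331 to 4769063, minus strand), which reached the level threshold through DMSO alone, fell, with 0.606 to 1.75 FPKM in TM libraries (median 0.751) and 0.599 to 2.43 FPKM in DMSO libraries (median 2.21). Its groups overlapped: TM replicate 1 stood at 1.75 FPKM and the lowest DMSO library at 0.599 FPKM (log2 change -0.99 ± 0.37, adjusted p = 0.0458). That call rests on few counts, 10 to 28 counts in TM libraries and 9 to 39 counts in DMSO libraries, and was lost when any of 9 libraries was left out (TM 2, TM 3, TM 4, TM 5, TM 6, DMSO 2, DMSO 3, DMSO 5, DMSO 6), with adjusted p from 0.0664 to 0.0922. The 12-exon Y9D1A.1 (chromosome II, 7446672 to 7448544, plus strand) was the second most abundant lnc_RNA, with 11.4 to 35.8 FPKM in TM libraries (median 26.1) and 20.5 to 38.1 FPKM in DMSO libraries (median 32.2). TM replicate 5 was its lowest value and the groups overlapped (log2 change -0.26 ± 0.21, adjusted p = 0.336). T09F5.12 averaged 9.61 ± 1.28 FPKM in TM and 8.36 ± 0.884 FPKM in DMSO, F40H3.6 5.37 ± 1.23 FPKM in TM and 5.49 ± 0.633 FPKM in DMSO, and F39E9.10 5.72 ± 0.96 FPKM in TM and 4.75 ± 0.509 FPKM in DMSO, and none of these 3 passed. F40H3.6 passed as lower after quantile normalization, and T09F5.12 passed without TM replicate 5 and DMSO replicates 2 and 6.

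**Figure D3:**
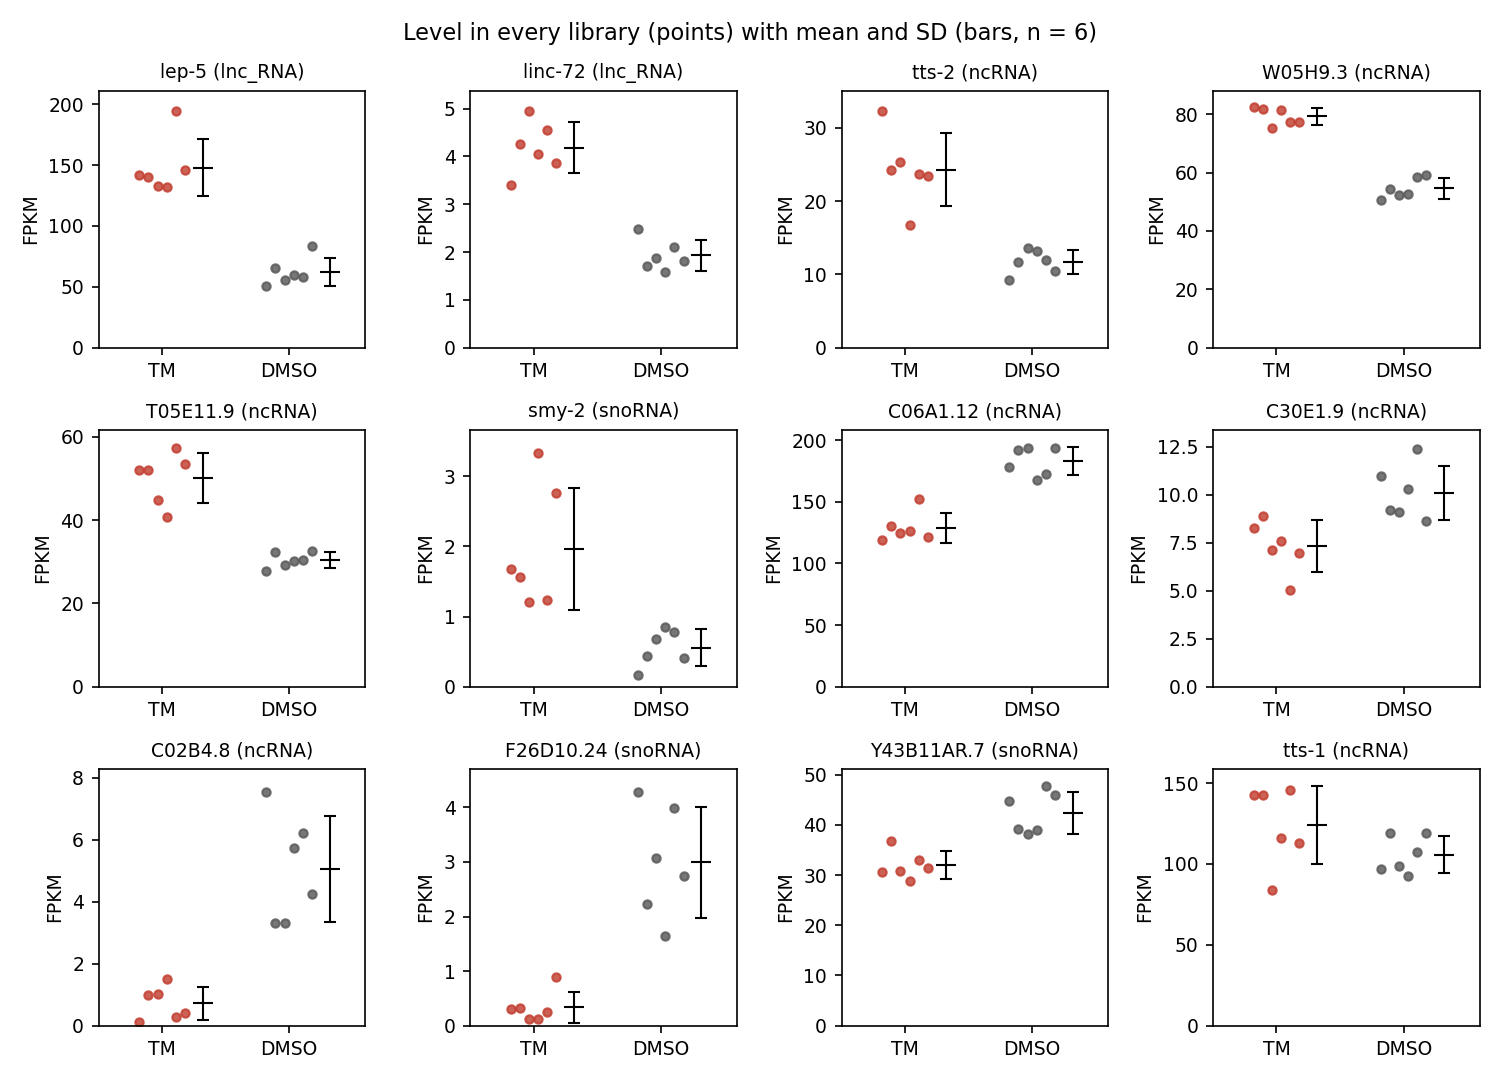
Level in FPKM (y axis, from 0) of 12 of the named noncoding RNA genes in each of the 6 TM and 6 DMSO libraries; points are libraries and bars are the mean ± SD. The values of lep-5, linc-72, tts-2, W05H9.3, T05E11.9 and smy-2 are all higher in TM, those of C06A1.12, C02B4.8, F26D10.24 and Y43B11AR.7 are all lower in TM, and those of C30E1.9 and tts-1 overlap.

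The ncRNA genes are assigned to no narrower class by the annotation, and those with over 300 counts per library are described first. The names tts-1 and tts-2 stand for transcribed telomere-like sequences. The RNA tts-1 (chromosome X, 1504131 to 1504841, minus strand) ran from 84 to 146 FPKM in TM libraries (median 129) and 92.4 to 119.3 FPKM in DMSO libraries (median 103). TM replicate 3 had the lowest value of all 12 and the groups overlapped, so no change was called (log2 change 0.20 ± 0.13, adjusted p = 0.254). The 2-exon tts-2 (chromosome II, 10201125 to 10202230, minus strand) had 16.8 to 32.3 FPKM in TM libraries (median 23.9) and 9.3 to 13.7 FPKM in DMSO libraries (median 11.8). All its TM values exceeded all its DMSO values and it rose (log2 change 1.02 ± 0.14, adjusted p = 4.47e-05). W05H9.3 (chromosome X, 6252274 to 6253785, plus strand, 1 exon of 1512 bases) ran from 75.2 to 82.3 FPKM in TM libraries (median 79.4) and 50.5 to 59.3 FPKM in DMSO libraries (median 53.5). Its spread within each group was small beside the gap between groups, and it rose (log2 change 0.51 ± 0.062, adjusted p = 2.3e-05). T05E11.9 (chromosome IV, 11106418 to 11107579, plus strand) had 40.9 to 57.4 FPKM in TM libraries (median 52) and 27.7 to 32.5 FPKM in DMSO libraries (median 30.3) and rose without overlap (log2 change 0.69 ± 0.091, adjusted p = 4.23e-05). C28H8.14 (chromosome III, 5916268 to 5916938, plus strand) ran from 53.9 to 71.5 FPKM in TM libraries (median 66) and 36.6 to 48.1 FPKM in DMSO libraries (median 44) and rose as well (log2 change 0.53 ± 0.10, adjusted p = 0.000789).

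R106.8 (chromosome X, 17480654 to 17481960, plus strand, 2 exons) overlaps 2 other ncRNA rows that were near 0. Its values were 72.8 to 99.7 FPKM in TM libraries (median 77.9) and 55.1 to 73.8 FPKM in DMSO libraries (median 67.4), with TM replicate 5 highest. The groups overlapped by a small margin and the rise was near the threshold (log2 change 0.27 ± 0.10, adjusted p = 0.0459). The call was lost without any of 9 libraries (TM 1, TM 2, TM 3, TM 5, TM 6, DMSO 1, DMSO 3, DMSO 4, DMSO 5), with adjusted p from 0.0518 to 0.114. Without TM replicate 5 alone the log2 change was 0.19. The starvation-linked RNA rncs-1 (chromosome X, 1011501 to 1012347, plus strand) ran from 1.47 to 5.21 FPKM in TM libraries (median 2.91) and 3.01 to 4.02 FPKM in DMSO libraries (median 3.28). Its DMSO values were close together, its TM values lay on both sides of them, and no change was called (log2 change -0.064 ± 0.27, adjusted p = 0.865).

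Of the 5 ncRNA genes that fell, C06A1.12 (chromosome II, 10574651 to 10574840, minus strand, 1 exon of 190 bases) had the highest level of all 92 genes. It ran from 118.8 to 152 FPKM in TM libraries (median 126) and 168 to 194 FPKM in DMSO libraries (median 185). Every TM library lay below every DMSO library, the closest being TM replicate 5 (log2 change -0.54 ± 0.089, adjusted p = 0.000271). C30E1.9 (chromosome X, 16929914 to 16944683, plus strand), a single exon of 14770 bases, was the longest of the 92 genes and had the most counts. Its level was 5.05 to 8.92 FPKM in TM libraries (median 7.38) and 8.63 to 12.4 FPKM in DMSO libraries (median 9.76). The groups overlapped slightly and it fell (log2 change -0.49 ± 0.11, adjusted p = 0.00255). Y94H6A.16 (chromosome IV, 2678231 to 2678622, minus strand) ran from 7.28 to 13.2 FPKM in TM libraries (median 11.7) and 12.1 to 18.9 FPKM in DMSO libraries (median 15.6), overlapping, and fell (log2 change -0.51 ± 0.15, adjusted p = 0.0164). The ncRNA gene Y94H6A.17, 874 bases away on the same strand, averaged 10.3 ± 2.11 FPKM in TM and 9.72 ± 2.3 FPKM in DMSO and did not pass (log2 change 0.049 ± 0.19, adjusted p = 0.852). F19C6.12 (chromosome X, 9992962 to 9993067, minus strand), 106 bases within an intron of the kinase gene grk-1, had 17.7 to 22.8 FPKM in TM libraries (median 20.4) and 23.3 to 30.6 FPKM in DMSO libraries (median 26.5) and fell without overlap (log2 change -0.41 ± 0.12, adjusted p = 0.0171).

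The largest change of an ncRNA gene past the threshold was the fall of C02B4.8 (chromosome X, 12665224 to 12665323, minus strand), 100 bases within an intron of the nuclear hormone receptor gene nhr-17. It ran from 0.106 to 1.51 FPKM in TM libraries (median 0.693) and 3.32 to 7.53 FPKM in DMSO libraries (median 5.0), and the groups did not overlap. With a TM mean below 1 FPKM, C02B4.8 was among the 92 genes through its DMSO level alone, a selection that favours a fall. These levels rest on 1 to 11 counts in TM libraries and 22 to 49 counts in DMSO libraries. The fall held in all 22 alternative fits (log2 change -2.75 ± 0.42, adjusted p = 0.00013), with log2 changes between -3.12 and -1.83. The called ncRNA genes with the largest rises had few counts as well, and both reached the level threshold through TM alone, a selection that favours a rise. Y34F4.7 (chromosome III, 1024809 to 1024901, minus strand, 93 bases) had 1.83 to 3.89 FPKM in TM libraries (median 2.86) and 0.473 to 1.44 FPKM in DMSO libraries (median 0.672), from 12 to 25 counts in TM libraries and 3 to 10 counts in DMSO libraries. Its groups did not overlap (log2 change 1.66 ± 0.35, adjusted p = 0.00165), and without a filter on low levels its adjusted p was 0.0507. F29G9.14 (chromosome V, 6010693 to 6010747, minus strand, 55 bases) had 1.14 to 3.03 FPKM in TM libraries (median 1.36) and 0 to 0.958 FPKM in DMSO libraries (median 0.183), with 3 of the 6 DMSO libraries at 0. Its counts were 5 to 12 counts in TM libraries and 0 to 4 counts in DMSO libraries, and the call (log2 change 2.12 ± 0.63, adjusted p = 0.0164) was lost without the filter (adjusted p = 0.172) and after quantile normalization; the gene did not pass edgeR's own filter.

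A further 5 ncRNA genes were called higher and are named here after their values were seen. F32A5.9 averaged 7.3 ± 1.16 FPKM in TM and 4.86 ± 0.934 FPKM in DMSO, with a log2 change of 0.55 ± 0.17 (adjusted p = 0.0169), and C23G10.14 averaged 1.56 ± 0.462 FPKM in TM and 0.831 ± 0.247 FPKM in DMSO, with 0.87 ± 0.24 (adjusted p = 0.0117). Y53F4B.45, within an intron of trip-4 on the opposite strand, averaged 19.4 ± 3.68 FPKM in TM and 14.6 ± 2.35 FPKM in DMSO, with 0.38 ± 0.14 (adjusted p = 0.0415). C04G2.14 averaged 1.93 ± 0.52 FPKM in TM and 1.06 ± 0.458 FPKM in DMSO, with 0.81 ± 0.30 (adjusted p = 0.0462), and C05D2.14 averaged 1.5 ± 0.613 FPKM in TM and 0.757 ± 0.252 FPKM in DMSO, with 0.92 ± 0.32 (adjusted p = 0.0337). The TM and DMSO values of C05D2.14 did not overlap and those of the other 4 did. C23G10.14 and C05D2.14 had DMSO means below 1 FPKM and reached the level threshold through TM alone. After quantile normalization none of the 5 was called. Y53F4B.45 was lost without any of 6 libraries (TM 4, TM 5, TM 6, DMSO 1, DMSO 3, DMSO 4; adjusted p from 0.0582 to 0.0969). C04G2.14 was lost without any of 10 libraries (TM 1, TM 2, TM 3, TM 4, TM 5, DMSO 1, DMSO 2, DMSO 3, DMSO 4, DMSO 5; adjusted p from 0.0545 to 0.0964), and C05D2.14 without any of 5 (TM 1, TM 3, DMSO 2, DMSO 4, DMSO 6; adjusted p from 0.0535 to 0.0865).

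The largest fitted change that did not pass was that of T04C12.17 (chromosome V, 11073006 to 11073175, plus strand), singled out after its values were seen. This ncRNA gene of 170 bases lies against act-3, which encodes actin, on the opposite strand and partly over its exons. TM replicates 1, 2 and 3 had 2.23, 2.71 and 6.13 FPKM and TM replicates 4, 5 and 6 had 0.108, 0.0746 and 0.117 FPKM, while 5 DMSO libraries lay between 0.0186 and 0.128 FPKM and DMSO replicate 6 had 1.43 FPKM. The test gave a log2 change of 2.41 ± 1.0 (adjusted p = 0.0694), and the gene passed without TM replicate 4, TM replicate 5 or DMSO replicate 6, and in DESeq2. The means of T04C12.17 were 1.89 FPKM in TM and 0.280 FPKM in DMSO. It thus reached the level threshold through TM alone, a selection that favours a rise. The counting's use of strand is not given in the sources used here, and act-3 belongs to a family of nearly identical actin genes, so reads of T04C12.17 and of act-3 cannot be told apart with certainty. In TM act-3 itself rose, 1163 ± 116 FPKM in TM and 846 ± 62.1 FPKM in DMSO (log2 change 0.43 ± 0.091, adjusted p = 0.0019).

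The 65 genes not called had log2 changes from -0.58 to 2.41, a median of 0.017 and a median SE of 0.27, and 5 of them had an unadjusted p under 0.05. Abundant genes among them, chosen after their values were seen, were CD4.10 (25.8 ± 4.01 FPKM in TM and 27.9 ± 1.92 FPKM in DMSO), Y105E8A.36 (12.8 ± 0.824 FPKM in TM and 11.5 ± 2.25 FPKM in DMSO) and Y41C4A.29 (9.83 ± 1.78 FPKM in TM and 11.4 ± 1.75 FPKM in DMSO). Further ones were W06H8.5 (9.56 ± 1.67 FPKM in TM and 7.03 ± 2.36 FPKM in DMSO), C04G6.15 (9.01 ± 1.68 FPKM in TM and 8.9 ± 1.37 FPKM in DMSO) and Y40A1A.6 (10.8 ± 2.58 FPKM in TM and 9.66 ± 1.85 FPKM in DMSO). All of W06H8.5 lies over exons of W06H8.6 on the same strand, where shared reads cannot be told apart. W06H8.5 passed as higher without DMSO replicate 3 (adjusted p = 0.0377). CD4.10 passed as lower without TM replicate 5 (adjusted p = 0.0307), as did Y41C4A.29 after quantile normalization. The 4 shortest genes, F39E9.19, C06C3.13, F39E9.20 and F39E9.25, span 18 to 21 bases and had mean counts of 2.08 to 3.75 per library, and 0 of the 4 were called. Of these, 3 lie within 229 bases of each other on the plus strand of chromosome II. F39E9.25 passed as lower after quantile normalization.

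Of the 12 snoRNA genes, 10 lie within a protein-coding gene on the same strand, 8 of them in an intron. Among these 8, K10D3.10 lies in an intron of K10D3.4 but also fully over exons of hpo-11 on the same strand. Whether reads in an intron came from the snoRNA or from an unspliced transcript of its host was not tested. The snoRNA with the highest level, Y24D9A.10 (chromosome IV, 4389804 to 4389877, minus strand), lies in an intron of rpl-7A, which encodes a protein of the large ribosomal subunit. It ran from 68.1 to 117 FPKM in TM libraries (median 81.4) and 92 to 123 FPKM in DMSO libraries (median 106) and overlapped between groups (log2 change -0.31 ± 0.14, adjusted p = 0.0929); without TM replicate 5 the adjusted p was 0.00705 and the log2 change -0.44, and it also passed with limma on log2 FPKM values. Y43B11AR.7 (chromosome IV, 7083872 to 7083930, minus strand) lies in an intron of rps-4, which encodes a protein of the small ribosomal subunit. It had 28.9 to 36.9 FPKM in TM libraries (median 31.1) and 38.2 to 47.8 FPKM in DMSO libraries (median 41.9), did not overlap and fell (log2 change -0.44 ± 0.13, adjusted p = 0.0132). Without DMSO replicates 2 and 6 and TM replicate 5 its adjusted p was 0.0656.

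F26D10.24 (chromosome IV, 17280046 to 17280169, plus strand, 124 bases) lies in an intron of hsp-1, which encodes a constitutive cytosolic chaperone. Its level ran from 0.119 to 0.89 FPKM in TM libraries (median 0.282) and 1.65 to 4.28 FPKM in DMSO libraries (median 2.9), resting on 2 to 8 counts in TM libraries and 15 to 34 counts in DMSO libraries. The groups did not overlap, TM replicate 6 was the highest TM library, and the fall was the largest among the 92 genes (log2 change -2.85 ± 0.37, adjusted p = 3.92e-05). Its TM mean was below 1 FPKM, so it reached the level threshold through DMSO alone, a selection that favours a fall. It held in all 22 alternative fits, with log2 changes from -3.25 to -1.56. Its host hsp-1 averaged 1405 ± 80.8 FPKM in TM and 1378 ± 85.5 FPKM in DMSO and did not pass (log2 change -0.0039 ± 0.079, adjusted p = 0.973). The snoRNA F25H2.14 (chromosome I, 10569187 to 10569412, plus strand) lies in an intron of tct-1, which encodes the translationally controlled tumour protein. Its values were 6.07 to 8.88 FPKM in TM libraries (median 7.85) and 4.19 to 6.81 FPKM in DMSO libraries (median 5.05), overlapping. The rise was near the threshold (log2 change 0.50 ± 0.18, adjusted p = 0.0423) and was lost without any of 9 libraries (TM 1, TM 3, TM 4, TM 5, DMSO 1, DMSO 2, DMSO 3, DMSO 4, DMSO 5), with adjusted p from 0.054 to 0.0873. It was not called after quantile normalization (log2 change 0.17).

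The gene smy-2 (chromosome IV, 9511395 to 9511466, minus strand, 72 bases) carries an SmY name although it is typed as a snoRNA. It lies in an intron of C33A12.3. It ran from 1.21 to 3.34 FPKM in TM libraries (median 1.62) and 0.168 to 0.856 FPKM in DMSO libraries (median 0.563), from 6 to 17 counts in TM libraries and 1 to 5 counts in DMSO libraries, and reached the level threshold through TM alone. The groups did not overlap (log2 change 1.5 ± 0.41, adjusted p = 0.00918), and the call was lost without a filter on low levels and after quantile normalization (highest adjusted p = 0.154); the gene did not pass edgeR's own filter. The other 7 snoRNA genes averaged between 1.42 and 2.46 FPKM in TM and between 1.59 and 2.76 FPKM in DMSO, overlapped between groups and did not pass, with log2 changes from -0.45 for R144.18 to 0.25 for K02B9.10. Without DMSO replicate 1 R144.18 passed at -0.68 (adjusted p = 0.0178). After quantile normalization R144.18, K10D3.10, H06I04.9 and ZK858.10 passed as lower.

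Among the 4 antisense RNA genes, anr-8 (chromosome IV, 8959570 to 8960955, minus strand) lies against an intron of tpra-1 and had 4.82 to 8.4 FPKM in TM libraries (median 6.13) and 4.39 to 7.67 FPKM in DMSO libraries (median 6.92). DMSO replicate 2 was its lowest value, the groups overlapped and no change was called (log2 change -0.072 ± 0.17, adjusted p = 0.753). The gene anr-3 (chromosome IV, 15522594 to 15524764, plus strand) lies partly against ari-1.4 and ran from 2.19 to 4.41 FPKM in TM libraries (median 3.41) and 3.43 to 4.84 FPKM in DMSO libraries (median 4.05), overlapping (log2 change -0.26 ± 0.19, adjusted p = 0.296). After quantile normalization anr-3 passed as lower, with an adjusted p of 0.00873. For anr-35 (chromosome II, 11170721 to 11176247, plus strand), which shares 77 bases with F37H8.6 on the opposite strand and reached the level threshold through TM alone, the values were 0.607 to 2.13 FPKM in TM libraries (median 1.7) and 0.624 to 1.36 FPKM in DMSO libraries (median 0.939). TM replicate 5 was the lowest of all 12 libraries and the groups overlapped, while the fit called the gene higher (log2 change 0.70 ± 0.25, adjusted p = 0.0401). The call was lost without any of 9 libraries (TM 1, TM 2, TM 4, TM 6, DMSO 1, DMSO 2, DMSO 3, DMSO 4, DMSO 6), with adjusted p from 0.0569 to 0.0912. After quantile normalization its change was -0.055 with an adjusted p of 0.766, so its direction turned with the scaling. The short anr-17, against an intron of cgt-2, averaged 1.14 ± 0.566 FPKM in TM and 1.22 ± 0.632 FPKM in DMSO and did not pass (log2 change -0.14 ± 0.41, adjusted p = 0.804). It passed as lower after quantile normalization.

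Within protein-coding genes lay 25 of the 92 genes, in 26 pairs because K10D3.10 lies in both K10D3.4 and hpo-11. Of these pairs, 17 share a strand and 9 are on opposite strands. In the 12 pairs with the noncoding gene in an intron of the same strand, 6 noncoding genes and 5 hosts were called, 2 pairs in both genes, and 6 pairs had the same sign of change. Whether reads in these introns came from unspliced host transcripts was not tested. In the 5 pairs with the noncoding gene over an exon of the same strand, 0 noncoding genes and 2 hosts were called and all 5 had the same sign, where shared reads cannot be told apart. Among the 9 pairs on opposite strands, 2 noncoding genes and 3 hosts were called, 1 pair in both, and 5 had the same sign. These counts stand beside 39.8% called over all tested genes, and no test was made of them.

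Counts of the noncoding gene per 100 counts of its host separated the groups in 2 of the 26 pairs. For F26D10.24 this ratio ran from 0.000973 to 0.00395 in TM libraries and 0.00786 to 0.0196 in DMSO libraries. For C02B4.8 it ran from 0.0399 to 0.387 in TM libraries and 0.642 to 1.13 in DMSO libraries, and nhr-17 itself fell, 23.4 ± 4.28 FPKM in TM and 35.5 ± 4.99 FPKM in DMSO (log2 change -0.63 ± 0.11, adjusted p = 0.000475). Both ratios were lower in every TM library than in any DMSO library. Both noncoding genes reached the level threshold through DMSO alone, a selection that favours a low ratio in TM. These TM ratios rest on 2 to 8 counts of F26D10.24 and 1 to 11 counts of C02B4.8, and no background share stands beside the count of separated pairs. F19C6.12 and its host grk-1 were both called lower, with grk-1 at 13.2 ± 1.13 FPKM in TM and 14.7 ± 0.38 FPKM in DMSO (log2 change -0.19 ± 0.059, adjusted p = 0.02) and ratios of 4.97 to 7.24 in TM libraries and 6.09 to 7.53 in DMSO libraries that overlapped. For smy-2 the ratio was 0.10 to 0.325 in TM libraries and 0.0229 to 0.101 in DMSO libraries, which overlapped, and C33A12.3 did not pass (log2 change 0.074 ± 0.074, adjusted p = 0.445).

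Among snoRNAs in ribosomal and translation genes, the signs of member and host differed in some pairs. Y43B11AR.7 fell while rps-4 had 1742 ± 240.4 FPKM in TM and 1457 ± 145 FPKM in DMSO and did not pass (log2 change 0.23 ± 0.11, adjusted p = 0.119). For Y24D9A.10 the host rpl-7A had 1589.6 ± 218 FPKM in TM and 1379.9 ± 190.2 FPKM in DMSO (log2 change 0.17 ± 0.12, adjusted p = 0.274). H06I04.9, in an intron of ubl-1, averaged 2.14 ± 0.543 FPKM in TM and 2.62 ± 0.899 FPKM in DMSO and did not pass, while ubl-1, which encodes a ubiquitin-like fusion with a ribosomal protein, passed as higher (log2 change 0.28 ± 0.11, adjusted p = 0.0499). For F25H2.14 and tct-1 both estimates were positive, with tct-1 at 1114 ± 73 FPKM in TM and 952 ± 77.7 FPKM in DMSO (log2 change 0.19 ± 0.082, adjusted p = 0.0726). F19H8.7, in an intron of the trehalose phosphate synthase gene tps-2, averaged 2.45 ± 1.4 FPKM in TM and 2.03 ± 0.356 FPKM in DMSO without passing, and tps-2 rose (log2 change 0.75 ± 0.11, adjusted p = 0.000107). Opposite fos-1, a transcription factor gene of the AP-1 class, F29G9.14 was called higher and so was fos-1, at 13.6 ± 1.78 FPKM in TM and 8.97 ± 0.792 FPKM in DMSO (log2 change 0.56 ± 0.11, adjusted p = 0.000835), with all 55 bases of F29G9.14 over fos-1 exons. F29G9.14 reached the level threshold through TM alone, a selection that favours a rise. As the counting's use of strand is not given, reads of F29G9.14 and of fos-1 cannot be told apart with certainty.

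**Figure D4:**
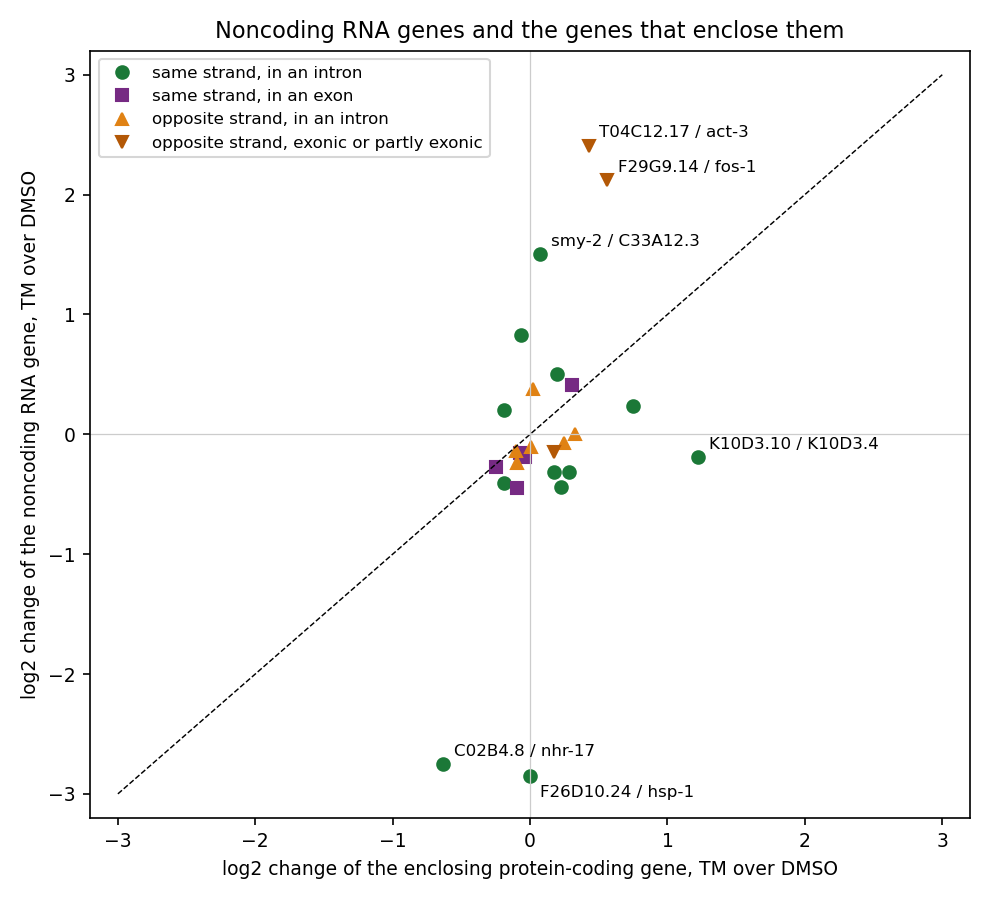
Log2 change of each noncoding RNA gene (y axis) against that of the protein-coding gene that encloses it (x axis), both TM over DMSO, for 26 pairs; symbols give the strand and whether the noncoding gene lies in an intron or over exons, and the dashed line marks equal change. F26D10.24 and C02B4.8 lie far below the line, at -2.85 beside -0.0039 for hsp-1 and at -2.75 beside -0.63 for nhr-17. Both reached the level threshold through DMSO alone, a selection that favours a fall.

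The 92 genes together held a small part of each library, 0.0771% to 0.0912% of all counts in TM libraries and 0.0701% to 0.0801% in DMSO libraries, which overlapped. The mean share was 0.0854% ± 0.00546 in TM and 0.0735% ± 0.00382 in DMSO (SD, n = 6 each). The lnc_RNA members held 0.0162% to 0.0187% in TM and 0.0112% to 0.0136% in DMSO, without overlap. This share is led by lep-5 and rests on the same values as the test of that gene. Per library lep-5 averaged 5701 counts in TM and 2376 in DMSO, while Y9D1A.1, the next by level, averaged 2387 in TM and 2757 in DMSO. No share or ratio without lep-5 was computed, and 13 of the 18 lnc_RNA genes were not called. The ncRNA members held 0.0589% to 0.0705% in TM and 0.0568% to 0.0640% in DMSO. For snoRNA members the shares were 0.00117% to 0.00153% in TM and 0.00135% to 0.00174% in DMSO, and for antisense RNA members 0.000716% to 0.000967% in TM and 0.000667% to 0.000884% in DMSO. These 3 types overlapped between groups. Over every row of a type, members or not, the ratio of the mean TM share to the mean DMSO share was 1.122 for ncRNA, 1.42 for lnc_RNA, 0.947 for snoRNA and 1.16 for antisense RNA. Ribosomal RNA rows, which poly(A) selection does not remove fully, held 1.48% to 2.44% in TM and 1.67% to 2.55% in DMSO.

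**Figure D5:**
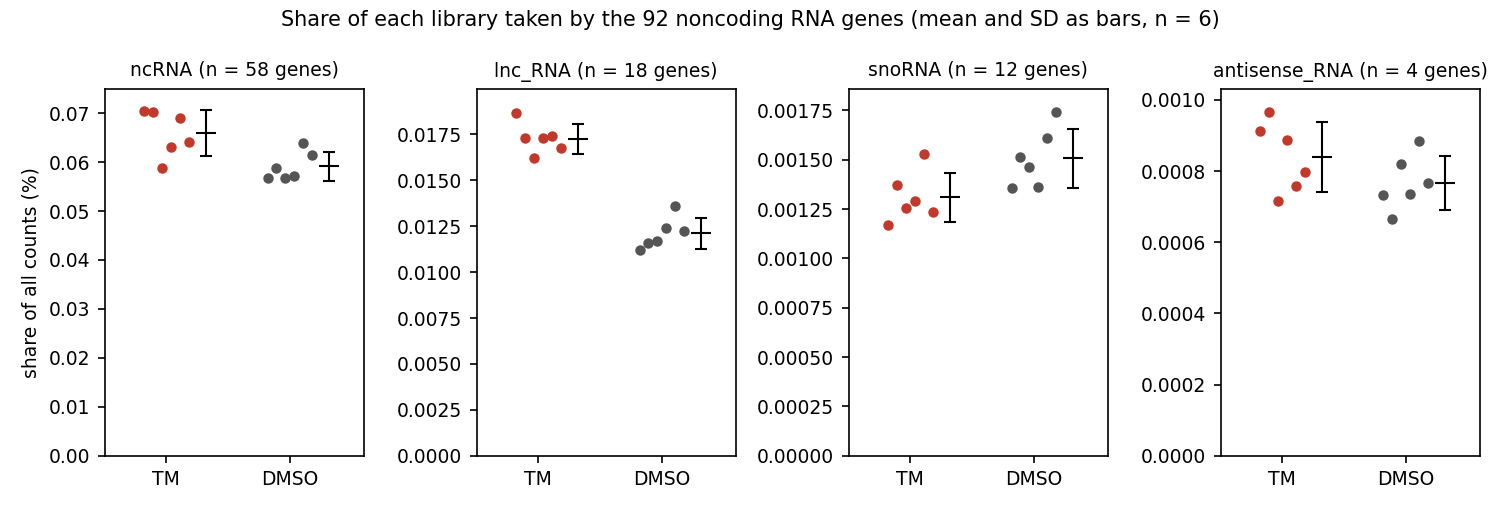
Share of all counts of a library (y axis, in percent, from 0) held by the noncoding RNA genes of each annotated type in the 6 TM and 6 DMSO libraries; points are libraries and bars are the mean ± SD. The lnc_RNA shares, led by lep-5, lie at 0.0162% to 0.0187% in TM and at 0.0112% to 0.0136% in DMSO, and the shares of the other 3 types overlap.

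Noncoding rows at 1 FPKM or more were also counted in each library. Of the 3018 rows of the 4 types, 94 to 124 reached it in single TM libraries and 86 to 101 in DMSO libraries, which overlapped. Of the 92 genes, 78 to 87 reached 1 FPKM in TM libraries and 70 to 81 in DMSO libraries. Of exon models, 60 of 90 genes with one in the annotation had a single exon and 30 had several. The X chromosome carried 23 of the 92 genes (25.0%), about the same share as for all rows of the 4 types (25.3%), beside 13.7% of all tested genes. Of those 23 genes, 5 were higher and 3 lower (34.8% called, beside 39.8% of all tested genes).

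Proteins that make or trim noncoding RNAs were read from the same fit. Of 11 tested genes of snoRNA-protein particles, 3 were higher and 0 lower, with a median log2 change of 0.17. The fibrillarin gene fib-1, whose product methylates ribosomal RNA under snoRNA guidance, averaged 603 ± 29.7 FPKM in TM and 557 ± 34 FPKM in DMSO and did not pass (log2 change 0.083 ± 0.07, adjusted p = 0.364). Its box C/D partner nol-58 rose, 194 ± 3.51 FPKM in TM and 168 ± 7.11 FPKM in DMSO (log2 change 0.17 ± 0.055, adjusted p = 0.0242), and the box H/ACA component nola-3 rose, 16.2 ± 2.7 FPKM in TM and 11.8 ± 1.01 FPKM in DMSO (log2 change 0.42 ± 0.14, adjusted p = 0.0302), as did Y66H1A.4 (log2 change 0.22 ± 0.068, adjusted p = 0.0188). Of 16 tested genes of the RNA exosome and its helpers, which trim and degrade RNA from the ends, 0 were higher and 4 lower, with a median of -0.091. The 4 were exos-2, exos-3, exos-8 and the deadenylase gene parn-2, among which exos-3 averaged 81.4 ± 1.7 FPKM in TM and 96.2 ± 3.32 FPKM in DMSO (log2 change -0.27 ± 0.053, adjusted p = 0.00104). Of 17 tested genes of cleavage and polyadenylation, 1 was higher and 5 lower, with a median of -0.14. The genes cpsf-4, fipp-1, cfim-1, cfim-2 and pcf-11 fell, such as cpsf-4 with 110.3 ± 2.21 FPKM in TM and 129 ± 4.12 FPKM in DMSO (log2 change -0.26 ± 0.051, adjusted p = 0.00123). The poly(A)-binding protein gene pab-1 rose, 837 ± 63.3 FPKM in TM and 645 ± 47.5 FPKM in DMSO (log2 change 0.35 ± 0.086, adjusted p = 0.00544). These counts stand beside 23.7% higher and 16% lower over all tested genes. After quantile normalization the 3 lists had 4 higher and 0 lower, 0 higher and 2 lower, and 1 higher and 6 lower, so the direction of each list's calls was the same.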

How the data were processed

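Poly(A) RNA of whole N2 worms was sequenced in 6 TM and 6 DMSO libraries. The deposited table gives a count and an FPKM value per gene and library, per the file headers. Before deposit the authors ran cutadapt 1.9, FastQC, HISAT2 2.2.1 and StringTie, per the submitters' processing notes. Neither the genome build nor the counting tool, its use of strand or its treatment of reads with several matches is named in the sources used here. The gene length implied by the deposited counts and FPKM values was within 10% of the annotated exon length for 78 of 90 noncoding genes. Whole-number counts were tested as deposited; no read was realigned.

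The 11535 genes that averaged 1 FPKM or more were tested with edgeR 4.0.16 in R 4.3.3 (TMM scaling, robust quasi-likelihood F test, two-sided, treatment as the only term) and Benjamini-Hochberg adjustment over all of them at a threshold of 0.05. Standard errors were derived as the absolute log2 change over the root of the F statistic. The model was tested on simulated data first. Each library counted as 1 replicate: within groups, the chi-square per degree of freedom against counting noise was 18.2 to 231 over 30 pairs. Host and overlapping genes came from the WBcel235 annotation. Shares, sums and ratios got no test. Alternatives changed the scaling (median-ratio, total counts, quantile), the filter, the tool (DESeq2 1.42.0, limma 3.58.1 on log2(FPKM + 1) and log2(FPKM + 0.1)), the members' threshold or the set of libraries, or put the replicate number into the model as a block.

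The noncoding genes, the lists and the tests were chosen with earlier results of these data known, as was the fit without 3 libraries. Named were, per type, the 3 genes with the highest level and up to 4 with the smallest p in each direction. To these came the 5 largest rises and 5 largest falls on the log2(FPKM + 1) scale without overlap, the genes next to the threshold, rncs-1, tts-1, lep-5 and the linc genes, and their hosts. Others are marked as chosen after their values were seen. One symbol in the snoRNA-protein list, gar-1, names an acetylcholine receptor gene in C. elegans; it lay below 1 FPKM and was not tested. RNA sequences were not analysed here.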

Additional observations from a re-analysis of the deposited data

Results flagged for a closer look

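In 7 of 74 groups of 6 libraries (37 named genes, each in TM and in DMSO) the highest or lowest library lay far from its nearest neighbour, by a share of the group's range above Dixon's 95% critical value, where chance gives about 3.7. TM replicate 5 accounted for 3 of them. It had 194 FPKM of lep-5, with the other TM libraries at 132 to 146 FPKM, 99.7 FPKM of R106.8, with the others at 72.8 to 81.3 FPKM, and 152 FPKM of C06A1.12, with the others at 118.8 to 131 FPKM. TM replicate 1 had 1.75 FPKM of M04F3.7, with the other TM libraries at 0.606 to 1.02 FPKM. TM replicate 6 had 0.890 FPKM of F26D10.24, with the others at 0.119 to 0.325 FPKM. Among DMSO libraries, replicate 2 had 4.39 FPKM of anr-8, with the others at 6.70 to 7.67 FPKM, and replicate 3 had 1.44 FPKM of Y34F4.7, with the others at 0.473 to 0.807 FPKM. Without TM replicate 5 the log2 change of lep-5 was 1.1, that of C06A1.12 was -0.61 and that of R106.8 was 0.19 (adjusted p = 0.0693); the first 2 stayed past the threshold.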

How the results depend on the processing

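The 27 noncoding genes called (19 higher, 8 lower) became 17 (10 higher) without a filter on low levels and, with edgeR's own filter, which kept 78 of the 92 genes, 12 higher. Over all genes in each fit, 23.3% were called without the filter and 39.0% with edgeR's own filter, beside 39.8% in the count model. Quantile normalization gave 8 higher and 26 lower. Over all tested genes that fit called 42.3%, with 39.6% of the calls higher, beside 59.7% in the count model. The cause was not tested. Requiring 1 FPKM in each group left 5 lower, and requiring a mean of at least 3 FPKM left 16 (11 higher, 5 lower), since both keep fewer genes. Leaving out 1 library at a time gave 22 to 27 called, 14 to 19 higher and 7 to 10 lower, beside 34.5% to 46.3% of all tested genes called. DESeq2 called 26 and limma on log2(FPKM + 1) 29, beside 44.9% and 39.9% of all tested genes. The replicate numbers did not pair the libraries (correlations of same-numbered libraries from -0.38 to 0.26, with 1 of 6 TM libraries, replicate 4, closest to its own number), and the fit with a replicate block called 19 (13 higher, 6 lower), without anr-35, M04F3.7, R106.8, F19C6.12 (adjusted p = 0.0538), C04G2.14, C23G10.14, C05D2.14 and F25H2.14; over all genes it called 3633, against 4590. With the block 1 gene of snoRNA-protein particles was higher and 2 exosome genes were lower, and limma called 5 of the snoRNA-protein genes higher. Leaving out 1 library gave 1 to 4 higher snoRNA-protein genes (1 without DMSO replicate 1, 4 or 5), 3 to 5 lower exosome genes and 1 to 2 higher (2 without TM replicate 5) and 5 to 6 lower polyadenylation genes. The TM to DMSO ratio of the snoRNA share was 0.868 over the 12 snoRNA genes alone. The sign turned under quantile normalization for anr-35 (-0.055), linc-11 (-0.24), linc-7 (-0.40), linc-5 (-0.25), linc-6 (-0.20), linc-8 (-0.31) and linc-29 (-0.013). Leaving out 1 library also turned the sign of 4 genes that were not called, with log2 changes of -0.36 to 0.018 for linc-4, -0.036 to 0.21 for linc-7 (0.32 without the 3 libraries that stand apart), -0.29 to 0.0101 for linc-63 and -0.26 to 0.086 for rncs-1. Of the other values of named genes under alternatives, 725 kept their direction and side of the threshold, 65 missed it and 7 newly passed it. Genes under 30 counts per library had a median SE of 0.37, which limits them to large changes.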

Other observations

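The gene F53F10.6 (chromosome I) lies within an exon of F53F10.8 on the same strand and was chosen after its values were seen. It had 1 or 2 counts, at 0.00303 to 0.0379 FPKM, in TM replicates 1 and 3 and DMSO replicates 3 and 5. It had 43 to 77 counts in the other 4 TM libraries and 58 to 74 counts in the other 4 DMSO libraries. Its host F53F10.8 averaged 23.5 ± 0.892 FPKM in TM and 24.2 ± 1.43 FPKM in DMSO. A similar single low value was that of linc-5 in DMSO replicate 3, with 1 count, where the other DMSO libraries had 33 to 63 counts and the TM libraries 27 to 83 counts. In that library C04C11.23, which lies within linc-5 on the same strand, had 158 counts, its highest DMSO value. Splitting of reads between overlapping genes was not tested. Close neighbours did not share calls in 2 cases, linc-15 with C49F5.11 and Y94H6A.16 with Y94H6A.17, where 1 gene of each pair passed and the difference between them was not tested; C49F5.11 passed without DMSO replicate 6 (adjusted p = 0.0336).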
